A study of Mus musculus with 8 samples.

Results

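The levels of 8 regulators of nephron identity and tubule metabolism, Pax8, Pax2, Hnf4a, Hnf4g, Tfap2b, Tfcp2l1, Esrrg and Ppargc1a, were followed across the cell types of the mouse kidney, in 2 genotypes and at 2 times of day. They were taken by symbol from the 32285 genes of the count tables, by a rule that reads no measured value, and each of the 8 symbols matched 1 gene. The 8 genes themselves were chosen with earlier results of these data known. 7 of them encode transcription factors, whereas Ppargc1a encodes PGC-1alpha, a coactivator that does not bind DNA by itself. All 8 are protein coding in the annotation, and their identifiers in the files are ENSMUSG00000026976 (Pax8), ENSMUSG00000004231 (Pax2), ENSMUSG00000017950 (Hnf4a), ENSMUSG00000017688 (Hnf4g), ENSMUSG00000025927 (Tfap2b), ENSMUSG00000026380 (Tfcp2l1), ENSMUSG00000026610 (Esrrg) and ENSMUSG00000029167 (Ppargc1a).

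The RNA of single nuclei was sequenced from the kidneys of 8 male mice of C57BL/6J background, 2 mice for each of the 4 groups Ctrl ZT4, Ctrl ZT16, cKOt ZT4 and cKOt ZT16, where ZT is the time in hours since the lights came on. The Ctrl mice were littermates with the genotype Bmal1lox/lox. The cKOt mice had the genotype Bmal1lox/lox/Pax8-rtTA/LC-1, in which doxycycline induces Cre recombinase in cells where the Pax8 promoter is active and so removes the clock gene Bmal1 (Arntl in the files) from the renal tubule. Both genotypes drank doxycycline for 2 weeks from 8 weeks of age. The promoter that drives the transgene is that of Pax8, 1 of the genes described here, and vessel, stromal and immune cells of a cKOt kidney lie outside the targeted epithelium. Nuclei came from frozen tissue and were sorted by DAPI, and each library is 1 mouse.

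In the embryo, Pax2 and Pax8 are needed for the formation of the nephron and the collecting system, and both remain active in parts of the adult tubule. HNF4A, a nuclear receptor related to HNF4G, maintains the proximal tubule, where it drives genes of transport and metabolism. AP-2beta, the product of Tfap2b, is needed for the distal nephron, and TFCP2L1 controls the identity of intercalated cells and the balance between these and principal cells in the collecting duct. ERRgamma, the product of Esrrg, is an orphan nuclear receptor that acts with the coactivator PGC-1alpha on genes of mitochondria and fatty acid oxidation. The comparisons asked whether the levels of these genes depend on the time of day and on the tubular clock.

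The libraries held between 36548873 and 54500820 UMIs (unique molecular identifiers, which count RNA molecules), in 8758 to 10975 nuclei each, with medians of 3004 to 4830 UMIs per nucleus. Nuclei were clustered without the 8 genes, and clusters were named by markers. A class name stands for nuclei that resemble that type by its markers (PCT for PCT-like, and so on), and TAL is given by its clusters 3, 10, 14 and 19 in all comparisons between groups, because the leading genes of cluster 3 include Ptger3, a marker of the thin ascending limb, and none of TAL. Cluster 3 is named from 6 TAL markers that stand outside its 10 leading genes. Of 81930 barcode sequences, 851 (1.04%) occurred in more than 1 library. The clusters of the proximal tubule divided by library: 5 of the 7 clusters of PST had over 50% of their nuclei in 1 library, and in the 6 clusters of PCT the library with most nuclei held from 29.0% to 49.9%. In the 4 clusters of TAL that share was 14.1% to 20.4%. The authors checked the inactivation of Bmal1 by PCR and electrophoresis on another section of the kidneys. Bmal1 itself could not serve as a check of the deletion: its level in whole-kidney sums was 39.3 and 33.2 CPM (counts per 1000000 protein-coding UMIs) in Ctrl ZT4, 161 and 158 in Ctrl ZT16, 289 and 203 in cKOt ZT4 and 295 and 258 in cKOt ZT16, and reads from the 3′ end can come from an allele that lacks an inner exon.

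Among the named classes, each of the 8 genes had a stretch of the nephron in which it stood highest, some of them shared. Hnf4a and Hnf4g were highest in the proximal tubule, Pax8 and Pax2 in the thin limbs and the medullary collecting duct, Tfap2b in the thin ascending limb, Tfcp2l1 in intercalated cells, Esrrg in the macula densa and the distal convoluted tubule, and Ppargc1a in the thick ascending limb. Levels below are means ± SD over the 8 libraries in CPM of each class (n = 8), and since the 3′ counts are not set against length, they were compared between classes for 1 gene and never between genes. They are a description with no test, because the classes were made from the same nuclei. A single level given for a cluster is instead from its UMIs pooled over the 8 libraries, so libraries with more nuclei weigh more.

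**Figure D1:**
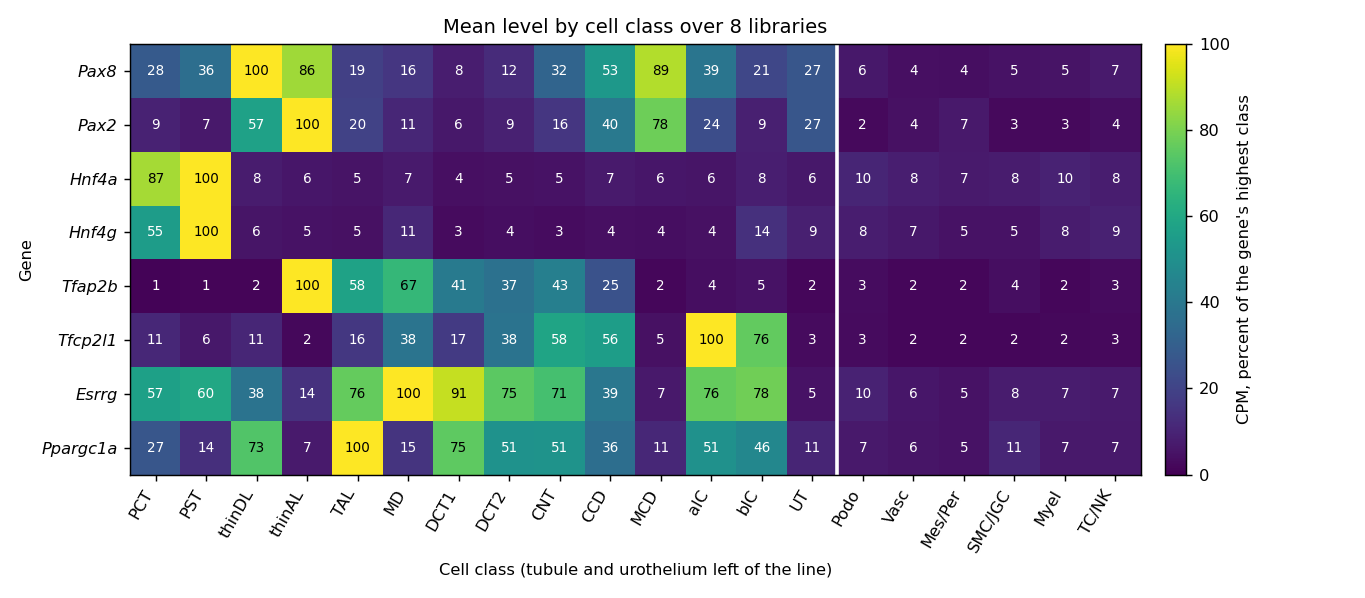
Level of each of the 8 genes (rows) in 20 cell classes (columns), as a percent of that gene's highest class, from the mean of the 8 libraries in CPM. Hnf4a and Hnf4g are above 50% of their highest level in PCT and PST and at most 14% elsewhere, Tfap2b runs from thinAL through the distal nephron to CCD, and Esrrg is above 50% of its highest level in 9 classes.

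Hnf4a, the regulator of the proximal program, was at 566 ± 72.5 CPM in PST (proximal straight tubule) and 489 ± 80.2 in PCT (proximal convoluted tubule), and PST was above PCT in 6 of the 8 libraries. In the other 18 classes its mean lay between 22.7 CPM in DCT1 and 58.3 CPM in podocytes, with 46.8 CPM in vascular cells. Without nuclei marked as doublets, podocytes were at 27.9 CPM and bIC at 24.5 in place of 47.7. PST and PCT together held most of the Hnf4a molecules of the kidney, with 49.7% ± 6.9 of them in PST and 33.1% in PCT. After each nucleus was thinned to 1000 UMIs, an Hnf4a molecule was found in 36.6% of PST, 31.4% of PCT and 3.99% of vascular nuclei (91.6%, 76.4% and 8.45% before thinning, at median depths of 7254, 4605 and 2080 UMIs). The share in vascular nuclei, a cell type in which HNF4A is not known to act, stands for the background that free RNA can give. Nuclei with fewer than 1000 UMIs, 38 to 298 per library, were left out of the thinned shares.

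Hnf4g, the paralog of Hnf4a, was at 680 ± 144 CPM in PST and 375 ± 99.4 in PCT, and PST was above PCT in all 8 libraries. The next class was bIC (beta-intercalated cells) with 95.5 ± 28.8 CPM, and the lowest was DCT1 with 19.8. PST alone held 58.1% of its molecules. Thinned to 1000 UMIs, 39.1% of PST, 22.0% of PCT and 4.01% of vascular nuclei had an Hnf4g molecule. Molecules of Hnf4a and Hnf4g occurred together in 14.3% of the thinned PST nuclei, and the product of their separate shares was also 14.3%. Across the 20 classes, the log2 levels of the pair were correlated with r = 0.94 (Pearson, a description over 20 classes that share the 8 libraries).

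Pax8 was highest in the thin limbs and the medulla: 1503 ± 177 CPM in thinDL (thin descending limb), 1332 ± 153 in MCD (medullary principal cells of the collecting duct) and 1291 ± 93.3 in thinAL (thin ascending limb), whose order was not beyond the spread between libraries. CCD (cortical principal cells) followed with 799 ± 119 CPM and was below thinAL in all 8 libraries. The proximal classes were in the middle, with 543 ± 77.0 in PST and 423 ± 63.1 in PCT, and the distal convoluted tubule was the low point of the tubule, with 187 ± 23.2 in DCT2 and 120 ± 16.5 in DCT1. Vascular cells were at 61.1 ± 13.1, and after thinning 9.32% of DCT1 nuclei had a Pax8 molecule against 4.74% of vascular and 61.4% of thinDL nuclei (31.4%, 10.2% and 91.8% before thinning). PST held 29.2% of all Pax8 molecules.

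The promoter window of Pax8 is printed because the promoter of this gene drives the transgene. It is taken from RefSeq for GRCm38.p6, from 250 bases before the start to 50 after it, on the minus strand and read 5′ to 3′, and is the window of the gene itself and not the fragment used in the transgene.
Pax8 start, chr2:24475550-24475849: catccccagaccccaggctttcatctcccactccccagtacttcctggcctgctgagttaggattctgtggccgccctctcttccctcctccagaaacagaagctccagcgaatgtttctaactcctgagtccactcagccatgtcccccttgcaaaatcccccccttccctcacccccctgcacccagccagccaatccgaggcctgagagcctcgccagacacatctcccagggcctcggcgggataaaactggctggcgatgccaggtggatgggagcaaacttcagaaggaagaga
Of the motifs searched on both strands, 3 are given here: the E-box CACGTG bound by clock factors, the nuclear receptor element AGGTCA and the cyclic AMP response element TGACGTCA. None of the 3 was found in this window or in the other windows of the 7 genes that matched the table (13 windows, with no entry for Hnf4g). The share of all 32851 promoter windows with at least 1 match was 7.15% for CACGTG, 16.26% for AGGTCA and 1.79% for TGACGTCA. The absence of a match says only that these letters are not in these windows.

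Pax2 had a steeper order within the same segments. It was at 3158 ± 563 CPM in thinAL, 2459 ± 300 in MCD, 1806 ± 355 in thinDL and 1279 ± 210 in CCD, and each of the first 3 was above the next in all 8 libraries. PCT (298 ± 20.9) and PST (215 ± 19.3) were far below the thin limbs, and DCT1 was at 198 CPM. A Pax2 molecule was found in 85.3% of thinned thinAL nuclei and 80.5% of thinned MCD nuclei, against 8.33% of vascular nuclei (98.7%, 98.6% and 14.9% before thinning). Molecules of Pax8 and Pax2 occurred together in 49.6% of thinned thinAL nuclei, near the product of their separate shares of 49.5%. Within the thick ascending limb Pax2 followed the cluster: 850 CPM in cluster 3 and 805 in cluster 14, which share the leading genes Kcnt1 and Pcsk6, against 396 in cluster 10, led by Cdh20 and Umod, and 391 in cluster 19, led by Enox1 and Cldn16.

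Some clusters carried Pax8 and Pax2 without a class name. Cluster 15, of 1992 nuclei and led by Sorcs3, Plpp4, Epha7 and Bst1, had 1801 CPM of Pax8 and 3168 of Pax2. The highest named classes, pooled in the same way, had 1518 of Pax8 (thinDL) and 3110 of Pax2 (thinAL). The orders given here are therefore among named classes only. Cluster 35 had 1324 CPM of Pax8 and 1454 of Pax2, and cluster 44 had 1119 and 640. Cluster 22, led by Nalcn, Kcnh4 and Cpe, had instead 587 CPM of Hnf4a and 524 of Hnf4g, near the levels of the proximal classes. Its nuclei were spread unevenly, with 193 and 10 in Ctrl ZT4, 1 and 34 in Ctrl ZT16, 606 and 143 in cKOt ZT4 and 318 and 340 in cKOt ZT16. They are not counted in PCT or PST.

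Tfap2b began at the thin ascending limb and ended in the cortical collecting duct. It was at 853 ± 111 CPM in thinAL, above MD (macula densa, 569 ± 163) in all 8 libraries, then at 491 ± 68.8 in TAL, 369 in CNT (connecting tubule), 353 in DCT1, 318 in DCT2 and 216 ± 29.1 in CCD. Of the middle classes, CNT was above DCT2 in all 8 libraries, while DCT1 was not separated from DCT2 beyond the spread. Next came bIC at 41.5 CPM, below CCD in all 8 libraries, and the level in PCT was 8.89 CPM. In thinned nuclei a Tfap2b molecule was found in 43.7% of thinAL, 0.772% of PCT and 1.45% of vascular nuclei (83.5%, 3.34% and 2.77% before thinning).

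Tfcp2l1 was highest in the intercalated cells, at 3183 ± 305 CPM in aIC (alpha-intercalated cells) and 2414 ± 253 in bIC, and aIC was above bIC in all 8 libraries. CNT (1857 ± 170) and CCD (1776 ± 160) followed, with an order that was not beyond the spread, and the principal cells of the medulla were far lower, at 148 ± 50.9 CPM in MCD. MD (1222) and DCT2 (1214) were above DCT1 (542) and TAL (519). After thinning, 90.4% of aIC, 83.0% of bIC and 5.09% of vascular nuclei had a Tfcp2l1 molecule (99.1%, 99.2% and 10.2% before thinning). Within TAL the order was the reverse of that of Pax2, with 281 and 282 CPM in clusters 3 and 14 against 724 and 891 in clusters 10 and 19.

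Esrrg was the most widely spread of the 8 genes. Its level was 8142 ± 1276 CPM in MD and 7423 ± 1110 in DCT1, whose order was not beyond the spread, and in bIC, aIC, TAL, DCT2, CNT, PST and PCT it lay between 4617 and 6377. It was lower in CCD (3213) and thinDL (3092), at 1153 in thinAL and at 550 in MCD, close to the 494 CPM of vascular cells. MD rested on 12 to 33 nuclei per library. The share in vascular nuclei was higher than for the other 7 genes: after thinning, 98.9% of MD and 34.4% of vascular nuclei had an Esrrg molecule (100% and 56.0% before thinning). PST, PCT and TAL held 29.1%, 21.6% and 18.1% of its molecules.

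Ppargc1a was highest in TAL, at 1824 ± 228 CPM, above DCT1 (1372 ± 204) in all 8 libraries, and thinDL (1328 ± 373), CNT (937), DCT2 (931) and aIC (923) followed. The order of DCT1 and thinDL was not beyond the spread. In the 4 Ctrl libraries alone thinDL (1658) stood above DCT1 (1539), as it did at a resolution of 2.2 (1329 against 1179). The proximal classes were lower, at 491 ± 83.3 in PCT and 249 ± 52.7 in PST. TAL held 37.7% of all Ppargc1a molecules. Within TAL its level was 1904 and 2254 CPM in clusters 3 and 14 and 1520 and 1565 in clusters 10 and 19. The pooled level of each of the 4 clusters was above that of DCT1 (1378 CPM). Thinned nuclei with a Ppargc1a molecule were 72.7% of TAL and 8.80% of vascular nuclei (95.4% and 17.1% before thinning), and 71.0% of TAL nuclei had molecules of Esrrg and Ppargc1a together, equal to the product of their shares.

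The genes whose levels followed each regulator most closely over the 20 classes were ranked by Pearson's r of log2(CPM + 1) among 13140 genes. For Hnf4a these were Cyp2j5 (r = 0.994), Pdzk1 (0.991) and Xylb (0.990), and for Hnf4g Upb1 (0.953), Pdzk1 (0.947) and Abcc2 (0.944). For Pax8 they were Chdh (0.949), Emx2 (0.922) and Igsf5 (0.899), and for Pax2 Ppl (0.919), Ccdc120 (0.914) and Ezh1 (0.912). EMX2 is itself a transcription factor of kidney development. For Tfap2b they were Sostdc1 (0.919), Tesc (0.880) and Top3b (0.853), and for Tfcp2l1 Myo19 (0.944), Tmem213 (0.941) and Rab17 (0.937). Esrrg was followed most closely by Tmem116 (0.948), Pde4c (0.942) and Coq9 (0.933), the last a gene of ubiquinone synthesis in mitochondria. Ppargc1a was followed by Nfyc (0.975), Nipsnap2 (0.945) and Slc25a3 (0.940), the last the phosphate carrier of mitochondria. Among the 8 genes themselves, r was 0.94 for Hnf4a with Hnf4g, 0.89 for Pax8 with Pax2, 0.87 for Tfcp2l1 with Esrrg, 0.83 for Esrrg with Ppargc1a and -0.51 for Hnf4a with Tfap2b.

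In sums over the whole kidney none of the 8 genes was called at an adjusted p below 0.05 by edgeR's quasi-likelihood test in any of the 4 comparisons, that is in 0 of 32 tests, of which 2 had an unadjusted p below 0.05, and DESeq2 also called 0, with 2 below 0.05. The share of all tested genes that were called was 0.446% for cKOt against Ctrl at ZT4, 0.174% for cKOt against Ctrl at ZT16, 0.142% for ZT16 against ZT4 in Ctrl and 0% for ZT16 against ZT4 in cKOt, so 8 genes with no call are near that background. In such sums, fewer cells of a type and less RNA per cell cannot be told apart. Pax8, whose promoter drives the transgene, had 404 and 370 CPM in Ctrl ZT4, 485 and 479 in Ctrl ZT16, 477 and 462 in cKOt ZT4 and 456 and 438 in cKOt ZT16. The Ctrl ZT4 libraries were the 2 lowest and did not overlap with either neighbouring group. The log2 difference was 0.31 ± 0.11 (SE) for cKOt against Ctrl at ZT4 (adjusted p = 0.385) and 0.31 ± 0.11 for ZT16 against ZT4 in Ctrl (adjusted p = 0.395), and these comparisons share the Ctrl ZT4 libraries.

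Whole-kidney levels of the other genes ranged from 429 to 592 CPM for Pax2, 207 to 330 for Hnf4a, 197 to 352 for Hnf4g, 91.1 to 152 for Tfap2b and 355 to 543 for Tfcp2l1. Esrrg ranged from 3768 to 4439 CPM and Ppargc1a from 481 to 703. The highest Ppargc1a value and the lowest Tfcp2l1 value were those of the second Ctrl ZT4 library, and the highest Tfcp2l1 value was that of the first cKOt ZT4 library. The difference between the genotypes' differences over time was called for 0 of the 8 genes, with 1 (Pax8, -0.37 ± 0.16) at an unadjusted p below 0.05 and 0 calls by DESeq2. Of all 16340 genes tested, 3 were called and 4.35% had an unadjusted p below 0.05.

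Within the cell types, sums per class or TAL cluster and library gave 23 units, 16 of them of the tubule, and 708 tests of the 8 genes over the 4 comparisons. Of these, 2 were called: Tfap2b in DCT2 for time in Ctrl, and Pax2 in TAL cluster 14 for time in cKOt. DESeq2 called 3. For cKOt against Ctrl there were 0 calls in 177 tests at ZT4 and 0 in 178 at ZT16, with 29 and 22 at an unadjusted p below 0.05 and 0 calls by DESeq2 at either time, beside 0.301% and 0.157% of all genes' tests called. For ZT16 against ZT4 there was 1 call in 179 tests in Ctrl and 1 in 174 in cKOt, beside 0.380% and 0.185% of all genes' tests, so these shares are near the background too. An unadjusted p below 0.05 was found in 98 of the 708 tests (13.8%), against 6.77% of the tests of all genes. The 708 tests repeat the 8 genes over units and comparisons that share the 8 mice, so they are not independent of each other. Groups did not overlap in 61, 66, 73 and 65 tests of the 8 genes in the order of the comparisons above (cKOt against Ctrl at ZT4 and ZT16, then time in Ctrl and cKOt), which was 37.4% of them, where all genes gave 34.8%, 34.3%, 38.6% and 36.8%. The test of genotype by time called 0 of 181, with 17 (9.39%) at an unadjusted p below 0.05 and 0 calls by DESeq2. Of all genes' tests, 4.26% had an unadjusted p below 0.05. In this test of genotype by time few genes of any kind were called, at most 11 of 9570 in a unit (aIC).

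Tfap2b fell from ZT4 to ZT16 in the DCT2 of Ctrl mice. Its level there was 355 and 491 CPM in Ctrl ZT4, 241 and 206 in Ctrl ZT16, 259 and 410 in cKOt ZT4 and 258 and 325 in cKOt ZT16, from 175 to 403 UMIs a library. The Ctrl ZT16 libraries were the 2 lowest of the 8, and the cKOt groups overlapped. The log2 difference of ZT16 against ZT4 was -0.87 ± 0.21 in Ctrl (adjusted p = 0.0456 by edgeR's quasi-likelihood test, where 0.635% of all genes tested in DCT2 were called) and -0.12 in cKOt (adjusted p = 0.929). The difference between these was 0.74 ± 0.29 with an adjusted p of 0.999, so the response to time was not shown to differ between genotypes. The call was lost without the second Ctrl ZT4 library (-0.60), without either Ctrl ZT16 library (-0.94 and -0.82), with DESeq2 (-0.88) and with a filter of 10 counts (-0.87), with adjusted p from 0.00453 to 0.436 over 15 settings.

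The neighbouring segments had values in the same direction, not called in the fit with all 8 libraries and no replicate block. In CNT, Tfap2b was at 458 and 529 CPM in Ctrl ZT4 against 324 and 267 in Ctrl ZT16 (-0.70 ± 0.18, adjusted p = 0.0689, from 0.0383 to 0.464 over 15 settings and called without the first cKOt ZT4 library and with 50 principal components), and at 303 and 432 in cKOt ZT4 against 304 and 338 in cKOt ZT16. In DCT1 the levels were 371 and 494 CPM in Ctrl ZT4 and 340 and 273 in Ctrl ZT16 (-0.50, adjusted p = 0.305), and in TAL clusters 10 and 19 the log2 differences in Ctrl were -0.41 and -0.59 (adjusted p = 0.299 and 0.153). The first cKOt ZT4 library was the lowest of its group in each of these segments.

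**Figure D2:**
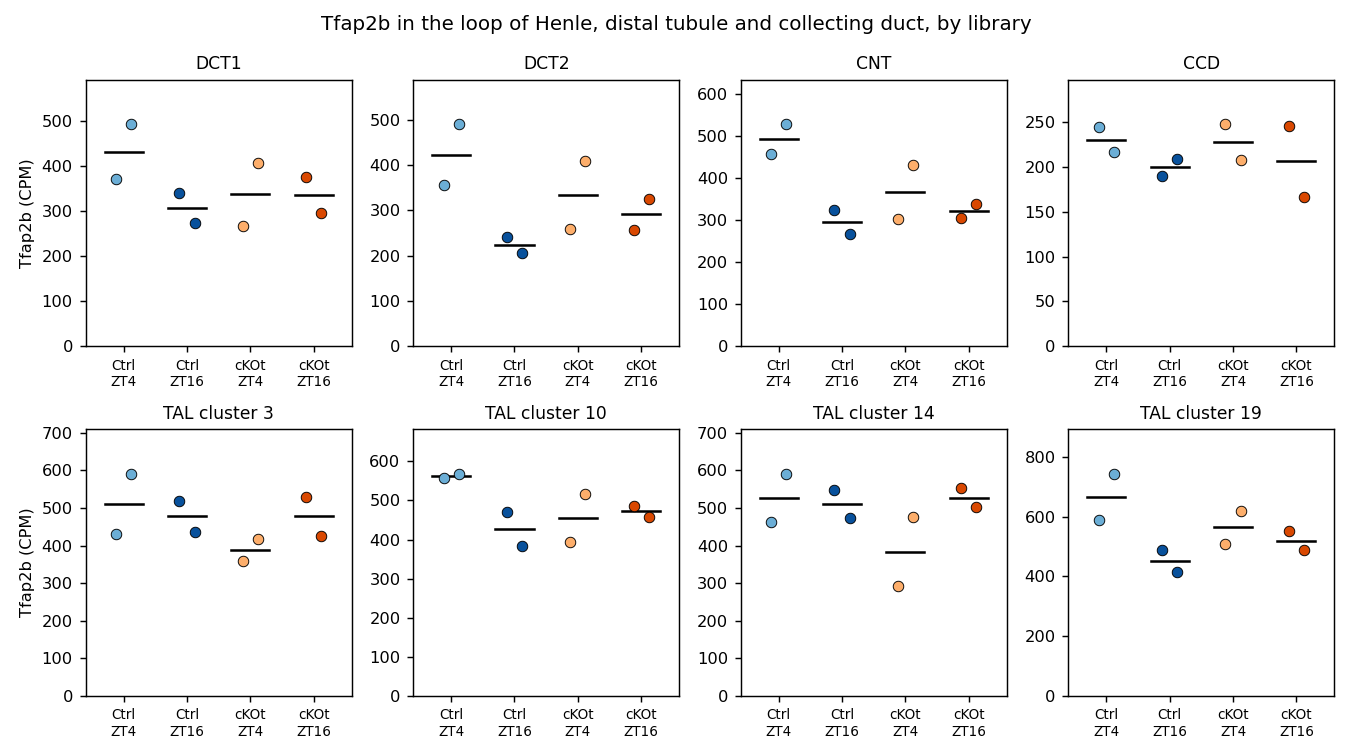
Tfap2b level in CPM (linear axis from 0) in DCT1, DCT2, CNT, CCD and the 4 TAL clusters, with 1 point for each library in the 4 groups and a black line at the group mean. In DCT2 and CNT the 2 Ctrl ZT16 libraries lie below the 2 Ctrl ZT4 libraries, while the cKOt ZT4 and ZT16 libraries overlap.

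Pax2 rose from ZT4 to ZT16 in TAL cluster 14 of cKOt mice. Its level there was 538 and 1007 CPM in Ctrl ZT4, 786 and 755 in Ctrl ZT16, 526 and 579 in cKOt ZT4 and 1126 and 935 in cKOt ZT16. Both cKOt ZT16 libraries were above both cKOt ZT4 libraries, whereas the second Ctrl ZT4 library stood near the cKOt ZT16 level and the first near the cKOt ZT4 level. The log2 difference was 0.93 ± 0.20 in cKOt (adjusted p = 0.0335 by edgeR's quasi-likelihood test, where 0.409% of all genes tested in this cluster were called) and 0.00 in Ctrl (adjusted p = 0.998). The difference between genotypes was 0.93 ± 0.28 (adjusted p = 0.740). The call was lost without any 1 of the 4 cKOt libraries (0.80 to 1.03) and with DESeq2 (0.93), and the adjusted p ran from 0.00423 to 0.363 over 15 settings. Without the first Ctrl ZT4 library, the difference of genotype by time was 1.30 and that of cKOt against Ctrl at ZT4 was -0.88. This fit leaves 1 Ctrl ZT4 mouse, at 1007 CPM, and both values rest on that library.

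Cluster 3, the nearest cluster to 14 by its leading genes, gave values of the same kind: 481 and 1123 CPM in Ctrl ZT4, 806 and 778 in Ctrl ZT16, 580 and 599 in cKOt ZT4 and 1149 and 978 in cKOt ZT16 (0.90 ± 0.23 in cKOt, adjusted p = 0.059, with a range of 0.00146 to 0.853 over 15 settings). This difference was called without any 1 of the 4 Ctrl libraries, without doublets and with 50 principal components. Without the first Ctrl ZT4 library, cluster 3 gave -0.95 for genotype at ZT4 and 1.38 for the interaction. Both values rest on the 1 Ctrl ZT4 mouse left, at 1123 CPM. Clusters 10 and 19 had Pax2 between 334 and 453 CPM in all 8 libraries. In thinAL, where Pax2 is highest, the 2 cKOt ZT16 libraries were the highest of the 8 (4153 and 3833 CPM, against 2932 and 2909 in cKOt ZT4, 2950 and 3264 in Ctrl ZT16 and 2575 and 2645 in Ctrl ZT4), with a log2 difference of 0.44 for time in cKOt (adjusted p = 0.897). CCD gave 1608 and 1490 CPM in cKOt ZT16 against 1039 and 1122 in cKOt ZT4 (0.52 ± 0.14, adjusted p = 0.242), and aIC gave 951 and 926 against 647 and 599 (0.57 ± 0.18, adjusted p = 0.348). In MCD the groups were close, with all libraries between 2087 and 2938 CPM.

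Pax2 in cells outside the tubule varied with the libraries. It ranged from 57.4 to 238 CPM in vascular cells and from 65.3 to 512 in mesangial cells and pericytes, lowest in the first cKOt ZT16 library and in the second Ctrl ZT4 library respectively. In the latter class most of it lay in cluster 30, led by Ahrr, Vcan, Hpse2 and Cldn11, which had 35 to 215 nuclei per library and 1238 CPM of Pax2, against 45.1, 86.2 and 48.9 CPM in clusters 0, 6 and 46. The vascular clusters also differed, with 288 and 384 CPM of Pax2 in clusters 5 and 37 and 43.8 to 73.8 in clusters 1, 2, 48 and 49. The share of vascular nuclei given for Pax2 covers all of these clusters. The libraries with fewest MCD nuclei were the first cKOt ZT16 and the second Ctrl ZT4 library, with 85 and 145 nuclei against 250 to 542 in the others. They also had the fewest thinAL nuclei, 70 and 123 against 213 to 276. The same 2 libraries were the highest of their groups in TAL clusters 3 and 14. The part of this in the Pax2 values was not tested.

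**Figure D3:**
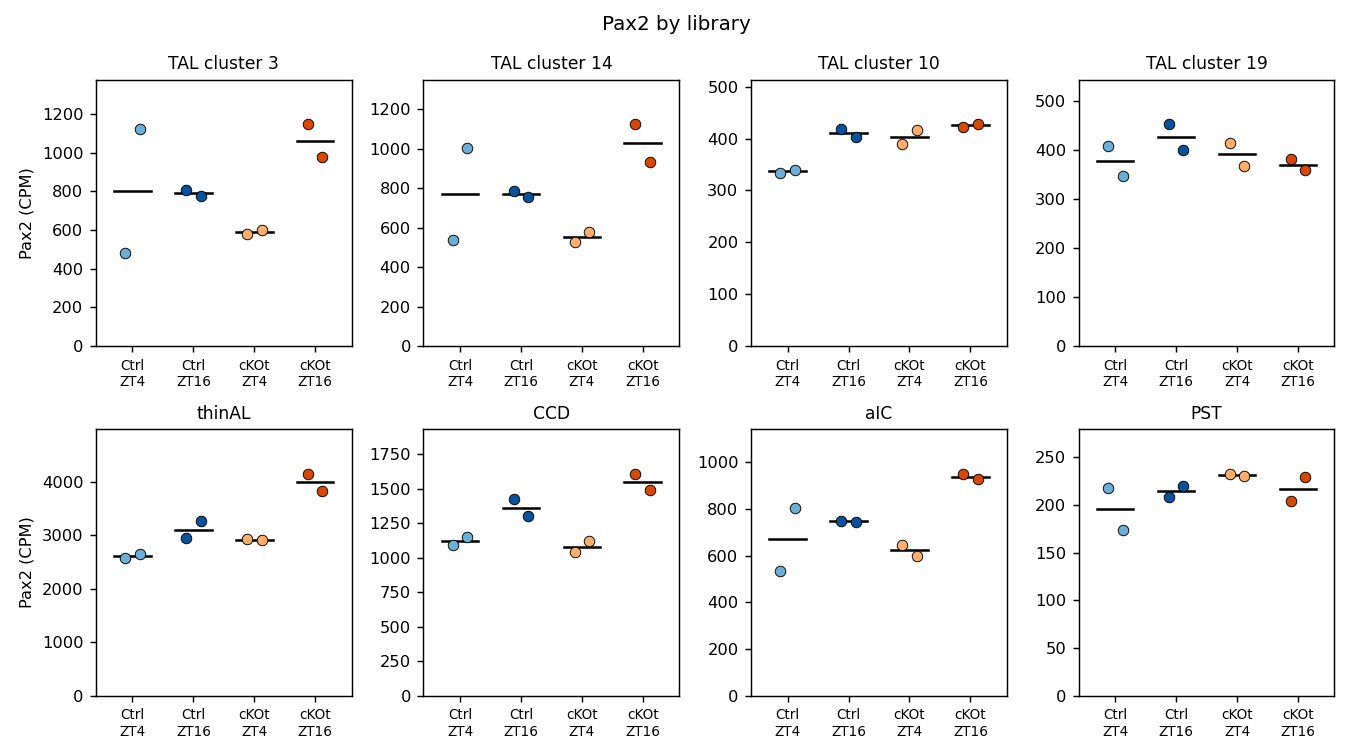
Pax2 level in CPM (linear axis from 0) in the 4 TAL clusters, thinAL, CCD, aIC and PST, with 1 point for each library in the 4 groups and a black line at the group mean. In thinAL and in TAL clusters 3 and 14 the 2 cKOt ZT16 libraries lie above the 2 cKOt ZT4 libraries, and the 2 Ctrl ZT4 libraries of TAL clusters 3 and 14 lie far apart.

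Esrrg was higher at ZT16 than at ZT4 along the thick ascending limb and the distal tubule in both genotypes. It was not called in any single unit by edgeR with all 8 libraries and no replicate block. In TAL cluster 3 its level was 6068 and 5497 CPM in Ctrl ZT4, 8107 and 9439 in Ctrl ZT16, 6311 and 5090 in cKOt ZT4 and 8039 and 8416 in cKOt ZT16. All 4 ZT16 libraries were above all 4 ZT4 libraries. The log2 difference was 0.62 ± 0.17 in Ctrl (adjusted p = 0.0784) and 0.58 in cKOt (adjusted p = 0.119), and the adjusted p in Ctrl ran from 0.00504 to 0.350 over 15 settings. It was called in both genotypes with DESeq2. Without the first Ctrl ZT16 library, which leaves 1 mouse in that group, the difference in Ctrl was 0.77. In cKOt the difference was 0.58 without either Ctrl ZT16 library. Esrrg in CNT of cKOt was the third call of DESeq2, so that tool called Esrrg 3 times and neither of the 2 results called by edgeR.

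DCT2 gave 5302 and 4780 CPM in Ctrl ZT4, 7048 and 7235 in Ctrl ZT16, 5695 and 4306 in cKOt ZT4 and 7338 and 6939 in cKOt ZT16. The 4 ZT16 libraries were again the highest, and the log2 differences were 0.56 in Ctrl (adjusted p = 0.0929) and 0.57 in cKOt (adjusted p = 0.162). In CNT the differences were 0.38 and 0.61 (adjusted p = 0.466 and 0.0982), in DCT1 0.32 and 0.39 (0.422 and 0.526), in TAL cluster 10 0.45 and 0.36 (0.143 and 0.451) and in TAL cluster 14 0.51 and 0.50 (0.140 and 0.179). TAL cluster 19 was 0.12 in both. Thus 7 of the 16 tubule units had Esrrg higher at ZT16 without overlap in both genotypes, where 5.15% of all genes' tests in tubule units did so. These 7 units share the 8 mice and are no replicates of each other. In the proximal tubule the time points overlapped in both genotypes. PCT was at 4402 and 4807 CPM in Ctrl ZT4, 4630 and 4687 in Ctrl ZT16, 4281 and 5299 in cKOt ZT4 and 3959 and 4868 in cKOt ZT16 (0.02 in Ctrl and -0.07 in cKOt). PST was at 4673 and 4925 CPM in Ctrl ZT4, 4101 and 4725 in Ctrl ZT16, 5162 and 5508 in cKOt ZT4 and 4329 and 5524 in cKOt ZT16 (-0.14 and -0.11).

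**Figure D4:**
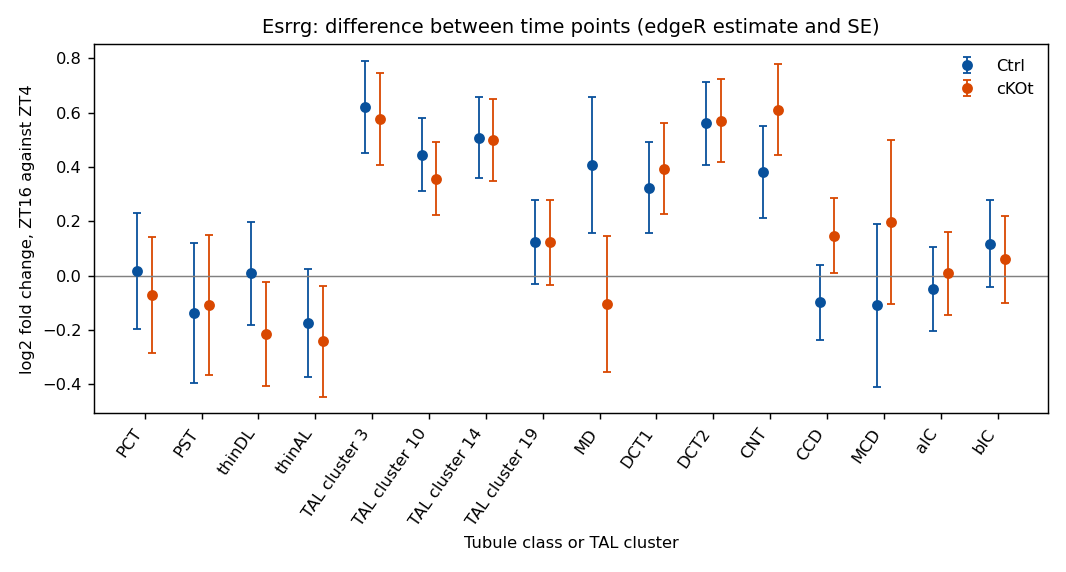
Log2 fold change of Esrrg between ZT16 and ZT4 (vertical axis, edgeR estimate, bars of 1 SE) in the 16 tubule units (horizontal axis), in blue for Ctrl and orange for cKOt. Estimates of both genotypes are above 0 in the TAL clusters, DCT1, DCT2 and CNT, from 0.12 in TAL cluster 19 to 0.62 in TAL cluster 3, and close to 0 in PCT.

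In the thin limbs Esrrg was lower in cKOt without a call. thinAL had 1421 and 1477 CPM in Ctrl ZT4, 1363 and 1252 in Ctrl ZT16, 752 and 1252 in cKOt ZT4 and 849 and 860 in cKOt ZT16. The 4 Ctrl libraries were at or above the highest cKOt library, and the log2 differences were -0.57 ± 0.20 at ZT4 (adjusted p = 0.513) and -0.64 ± 0.20 at ZT16 (adjusted p = 0.560). thinDL gave -0.34 and -0.57. Without the second cKOt ZT4 library, which leaves 1 cKOt ZT4 mouse at 752 CPM, the difference in thinAL at ZT4 was -0.99.

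Among the tubule units, Ppargc1a showed its largest genotype differences in thinDL, with 1786 and 1529 CPM in Ctrl ZT4, 1802 and 1516 in Ctrl ZT16, 941 and 1122 in cKOt ZT4 and 1014 and 913 in cKOt ZT16. The Ctrl and cKOt libraries did not overlap at either time, but the class had only 35 to 69 nuclei per library. The log2 differences were -0.70 ± 0.21 at ZT4 (adjusted p = 0.174) and -0.80 ± 0.21 at ZT16 (adjusted p = 0.189). DCT1, DCT2 and aIC also had lower Ppargc1a in cKOt without overlap at both times, which makes 4 of the 16 tubule units, where 3.77% of all genes' tests in tubule units did so. In DCT1 the levels were 1636 and 1475 CPM in Ctrl ZT4, 1548 and 1496 in Ctrl ZT16, 1234 and 1318 in cKOt ZT4 and 1011 and 1255 in cKOt ZT16 (-0.29 and -0.41, adjusted p = 0.935 and 0.706). PCT had its highest values in cKOt ZT4 (593 and 605 CPM, against 434 and 561 in Ctrl ZT4).

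The proximal regulators were not called in PCT or PST in any of the 4 comparisons. These tests leave out the nuclei of the unnamed cluster 22, most of which came from cKOt libraries. Hnf4a in PCT was at 579 and 537 CPM in Ctrl ZT4, 557 and 407 in Ctrl ZT16, 531 and 462 in cKOt ZT4 and 497 and 345 in cKOt ZT16. The genotypes overlapped at ZT16 and lay next to each other without overlap at ZT4, with log2 differences of -0.19 ± 0.20 (adjusted p = 0.907) and -0.18 (adjusted p = 1). In PST Hnf4a was at 564 and 507 CPM in Ctrl ZT4, 672 and 503 in Ctrl ZT16, 636 and 550 in cKOt ZT4 and 624 and 468 in cKOt ZT16. The groups overlapped in all 4 comparisons, with genotype differences of 0.15 at ZT4 and -0.08 at ZT16, and the latter turned positive without the first Ctrl ZT16 or the second cKOt ZT16 library. Hnf4g in PST was at 785 and 839 CPM in Ctrl ZT4, 699 and 712 in Ctrl ZT16, 515 and 809 in cKOt ZT4 and 431 and 652 in cKOt ZT16. Both cKOt ZT16 libraries were below both Ctrl ZT16 libraries, with a log2 difference of -0.36 (adjusted p = 0.869), and the first library of each cKOt group was the lower one. In PCT the Hnf4g difference was -0.32 at ZT4 and -0.49 ± 0.26 at ZT16 (adjusted p = 0.918).

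Pax8 in PCT was at 364 and 306 CPM in Ctrl ZT4 and between 424 and 514 in the other 6 libraries, so Ctrl ZT4 stood below all of them. The log2 difference for time was 0.54 ± 0.15 in Ctrl (adjusted p = 0.171) and 0.05 in cKOt. At ZT4, cKOt was above Ctrl in PCT (0.35 ± 0.15, adjusted p = 0.531). In CNT cKOt was lower at ZT16, with 584 and 607 CPM in Ctrl ZT16 against 421 and 431 in cKOt ZT16 (-0.47 ± 0.16, adjusted p = 0.288), and in PCT the difference at ZT16 was -0.14 (adjusted p = 1.00). Tfcp2l1 in PCT was at 261 and 173 CPM in Ctrl ZT4, 202 and 365 in Ctrl ZT16, 781 and 359 in cKOt ZT4 and 360 and 315 in cKOt ZT16. The first cKOt ZT4 library stood above all the others, and the log2 difference at ZT4 was 1.38 ± 0.39 (adjusted p = 0.213 by edgeR's quasi-likelihood test). It was called at 1.31 with the replicate numbers of Ctrl ZT16 crossed in a block. Without the second cKOt ZT4 library it was 1.85, with the first as the only cKOt ZT4 mouse.

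The same comparison gave 0.71 ± 0.27 for Tfcp2l1 in PST (adjusted p = 0.512), 0.83 in vascular cells (adjusted p = 0.379) and 1.15 ± 0.24 in mesangial cells and pericytes (adjusted p = 0.156). It was not of one direction over the tubule: of the 16 tubule units, PCT and PST among them, 8 were positive and 8 negative. The lowest was -0.78 in thinDL, and podocytes gave -0.73. PCT cluster 9 had 1280 of its 2567 nuclei in the first cKOt ZT4 library and a Tfcp2l1 level of 647 CPM. In its main sites Tfcp2l1 was between 2616 and 3485 CPM in aIC and between 1911 and 2661 in bIC, with both minima in the first cKOt ZT4 library. Different clusters held the proximal nuclei of different groups: in PCT, cluster 16 had 904 and 953 nuclei in Ctrl ZT4 and cluster 8 had 1010 and 1071 in cKOt ZT16, and in PST, cluster 23 had 692 and 723 in cKOt ZT16, while clusters 18, 26, 27, 29 and 34 were each held mostly by 1 or 2 libraries.

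**Figure D5:**
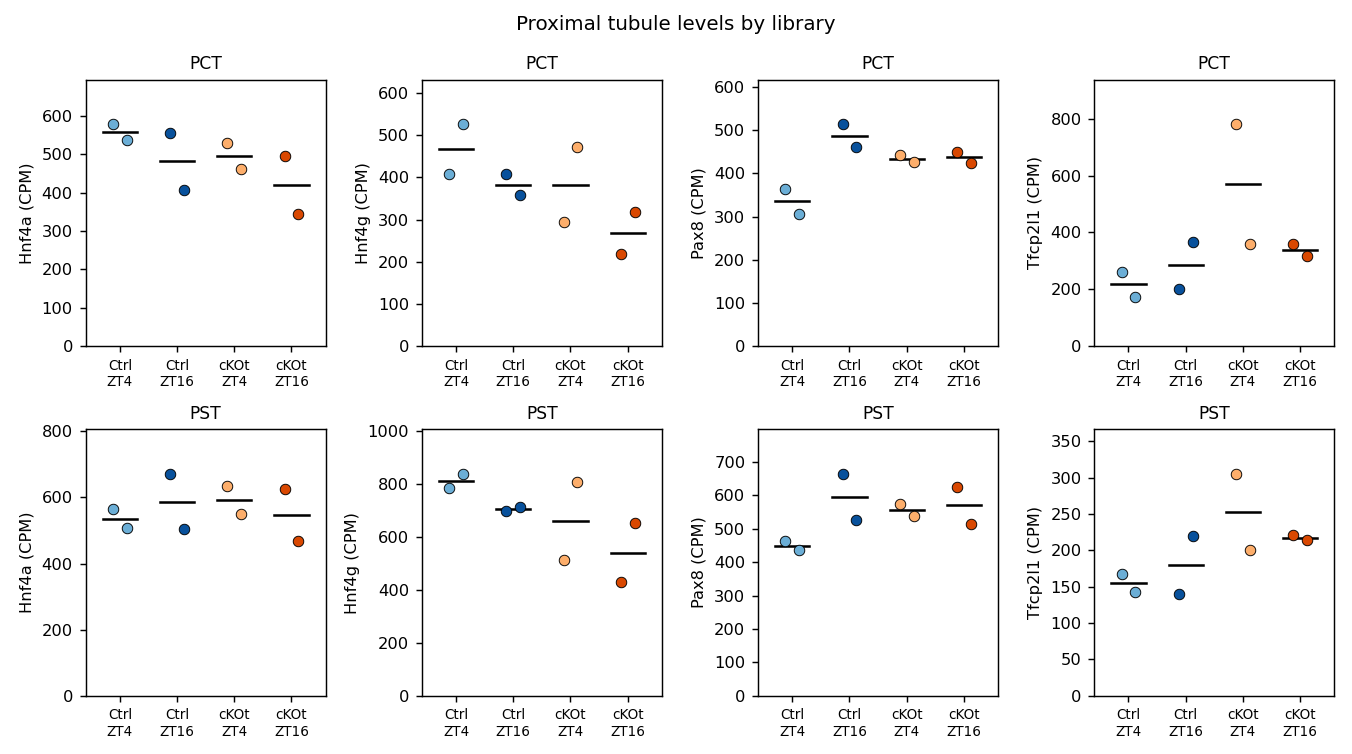
Levels of Hnf4a, Hnf4g, Pax8 and Tfcp2l1 in CPM (linear axes from 0) in PCT and PST, with 1 point for each library in the 4 groups and a black line at the group mean. The ranges of Hnf4a in PST overlap in all comparisons, both Ctrl ZT4 libraries are the lowest for Pax8 in PCT, and 1 cKOt ZT4 library stands above the rest for Tfcp2l1.

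Of 20 relatives of the 8 genes, 16 were tested in the whole kidney, with 0 calls by edgeR's quasi-likelihood test in 64 tests and 3 at an unadjusted p below 0.05. All genes gave calls in 0.446% and 0.174% for genotype at ZT4 and ZT16, 0.142% for time in Ctrl and 0% in cKOt. Over the 4 comparisons, 8.32% of all genes' tests in the whole kidney had an unadjusted p below 0.05. Within the classes 2 of 687 tests were called (beside 0.301%, 0.157%, 0.380% and 0.185% of all genes' tests, in the same order), both of Ppargc1b, the gene of the related coactivator PGC-1beta, which fell from ZT4 to ZT16 in TAL cluster 14 in both genotypes. In the 4 TAL clusters, 0.871% of all genes' tests were called for time in Ctrl and 0.462% in cKOt. Its level was 640 and 569 CPM in Ctrl ZT4, 384 and 334 in Ctrl ZT16, 460 and 560 in cKOt ZT4 and 281 and 302 in cKOt ZT16. The 4 ZT16 libraries were the lowest, with log2 differences of -0.73 ± 0.16 in Ctrl (adjusted p = 0.0165) and -0.78 ± 0.16 in cKOt (adjusted p = 0.0265). Esrrb, the closest relative of Esrrg, was highest in DCT1 (907 ± 86.6 CPM) and TAL (715). Tfap2a was highest in CCD (120 CPM), CNT (102) and MCD (93.2).

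Of 30 other transcription factors of the kidney, 0 of 120 tests were called in the whole kidney by edgeR's quasi-likelihood test. The called shares of all genes were the 0% to 0.446% given above. An unadjusted p below 0.05 was found in 13 of the 120, beside 8.32% of all genes' tests. Within classes Ehf, an ETS factor of epithelia, was among those called. It fell from ZT4 to ZT16 in the CNT of Ctrl mice (-0.94, adjusted p = 0.0189), where 0.557% of all genes' tests in DCT1, DCT2 and CNT were called.

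For 15 genes known to depend on HNF4A in the proximal tubule, 120 tests were run in PCT and PST over the 4 comparisons. An unadjusted p below 0.05 was found in 27 of them, beside 6.77% of all genes' tests over all classes and clusters. All genes gave calls in PCT and PST in 0.725% and 0.351% for genotype at ZT4 and ZT16. For time these shares were 0.313% in Ctrl and 0.00378% in cKOt. Of the 120 tests of the list, 1 was called. This was Cubn, the gene of the endocytic receptor cubilin, which fell in the PCT of Ctrl mice from 930 and 1243 CPM at ZT4 to 440 and 400 at ZT16 (-1.38 ± 0.20, adjusted p = 0.0192), while cKOt had 655 and 722 at ZT4 and 636 and 739 at ZT16. Cubn was also called for time in Ctrl in the whole kidney (-1.37, adjusted p = 0.0358), in all 4 TAL clusters and in 3 classes outside the tubule, among them vascular cells at 79.1 and 129 CPM in Ctrl ZT4 against 42.6 and 48.3 in Ctrl ZT16. The median log2 difference of the list in PCT and PST was -0.17 and -0.06 for genotype at ZT4 and ZT16 and -0.01 and -0.03 for time in Ctrl and cKOt, where the median of all genes tested lay between -0.01 and 0.01. Over all classes and clusters 21 of 1250 tests of the list were called, beside 0.301% and 0.157% of all genes' tests for genotype at ZT4 and ZT16, 0.380% for time in Ctrl and 0.185% in cKOt. Outside the proximal tubule the called genes of this list were Cubn, Pck1, which makes glucose from lactate and amino acids, and Cyp4b1. Pck1 rose from ZT4 to ZT16 in Ctrl in CNT, DCT2, vascular cells and 3 TAL clusters (0.84 to 1.17), and in cKOt against Ctrl at ZT4 in TAL cluster 10 (0.92). Cyp4b1 fell in cKOt at ZT4 in podocytes, TAL cluster 3, aIC and thinAL, and from ZT4 to ZT16 in Ctrl in podocytes (-1.72), and Cubn fell in cKOt at ZT4 in aIC (-1.54). These are genes of the proximal tubule, with mean levels of 777 CPM of Pck1, 1209 of Cyp4b1 and 681 of Cubn in PST against 159, 252 and 78.5 in vascular cells, and the part of free RNA in these calls was not tested.

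A list for genes of PGC-1 and ERR action held 27 symbols, of which 25 were in the files. All 25 were tested in the whole kidney and 24 in the TAL clusters. Of these, Pdk4, which slows the oxidation of pyruvate, was called in the thick ascending limb. It rose in cKOt at ZT4 in 4 of 4 TAL clusters, with log2 differences from 1.75 to 2.39 (adjusted p from 0.000371 to 0.0157, beside 0.425% of all genes' tests at ZT4 and 0.186% at ZT16 in these clusters). In cluster 3 its level was 30.2 and 12.0 CPM in Ctrl ZT4, 11.7 and 22.5 in Ctrl ZT16, 59.9 and 64.2 in cKOt ZT4 and 16.5 and 17.3 in cKOt ZT16. The 2 cKOt ZT4 libraries stood apart from the other 6, and Pdk4 also fell from ZT4 to ZT16 in cKOt in clusters 3, 14 and 19 (-1.83, -1.51 and -1.53). These 2 libraries also held 25 and 41 adipocyte-like nuclei, against 0 to 5 in the other 6, and the part of RNA from such cells in the Pdk4 values was not tested. In DCT1, DCT2 and CNT, 35 of 279 tests of this list had an unadjusted p below 0.05, beside 6.77% of all genes' tests over the 23 units. All genes gave calls in these classes in 0.272% and 0.249% for genotype at ZT4 and ZT16, 0.557% for time in Ctrl and 0.306% in cKOt. Of the 279 tests of the list, 0 were called by edgeR's quasi-likelihood test there. The median log2 difference for time there was 0.21 in Ctrl and 0.12 in cKOt, beside 0.23 and 0.25 for the HNF4A list and -0.0016 and 0.0014 for all genes in the same classes. Of 8 genes linked to TFCP2L1, 0 of 59 tests were called in aIC and bIC, with 6 at an unadjusted p below 0.05. All genes gave calls in 0.394%, 0.221%, 0.205% and 0.0375% there, for genotype at ZT4 and ZT16 and for time in Ctrl and cKOt. Over the 23 units, 6.77% of all genes' tests had an unadjusted p below 0.05. Aqp2, the gene of the water channel of principal cells, had a call for time in Ctrl in TAL clusters 3 and 14 (1.69 and 1.50) at low levels, with 11.1 and 21.4 CPM in Ctrl ZT4 against 37.3 and 79.3 in Ctrl ZT16 in cluster 3. The highest value was that of the second Ctrl ZT16 library, which had the most MCD nuclei (542), and the part of RNA from principal cells in it was not tested.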

How the data were processed

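The authors aligned the reads with Cell Ranger (7.1.0 per the submitters' processing notes) and for each of 8 libraries deposited raw UMI counts of every gene in every barcode called a cell. The methods name mm10 and the notes GRCm39, so no coordinates were joined to the counts. A barcode was kept if it had 500 genes and 800 UMIs or more and no more than 2% of UMIs from mitochondria (81391 of 82784). Scrublet in scanpy 1.11.5 marked 4.75% to 5.90% of nuclei per library as doublets, which were kept.

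Nuclei were clustered (igraph 0.11.9) on 2000 variable protein-coding genes without the 8 members, 5 of which were among them, with 1000 principal components, 20 neighbours and a resolution of 5, chosen after clusters were seen, which gave 66 clusters. Counts of 21261 protein-coding genes were summed per library and class with at least 10 nuclei in each library. Levels are plain CPM, and shares used nuclei thinned to 1000 UMIs.

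Tests were edgeR 4.0.16 quasi-likelihood with TMM, 1 model of 4 groups of 2 mice, a minimum of 5 counts in both libraries of 1 of the groups compared, and Benjamini-Hochberg adjustment within each unit and comparison at 0.05. They were tested on simulated data. P-values measure the spread between these mice, and the labels name no batch. Named genes were the 8 members, the 3 most similar genes of each, and the called genes of 5 lists, of which 1 gene is not reported here, nor is 1 motif. Members and lists were chosen with earlier results of these data known. Alternatives were DESeq2 1.42.0, other normalizations and filters, the replicate number as a block, no doublets, other clusterings, and each library left out. Sequences are from RefSeq for GRCm38.p6.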

Additional observations from a re-analysis of the deposited data

How the results depend on the processing

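In the whole kidney, 0 of the 8 genes were called under every setting run (DESeq2, RLE factors, library totals, no filter, the replicate block, no doublets, each library left out, and, chosen after seeing the data, no adipocyte-like nuclei and a crossed block). Within classes the 2 calls became 1 with a filter of 10 counts, 4 with classes from 50 principal components and 10 with the replicate block (6 of Esrrg in TAL clusters 3 and 10, DCT2 and CNT, and 2 each of Pax2 and Tfap2b). Leaving out 1 library gave 1 to 6 calls, with 6 without the first Ctrl ZT4 library, 4 without the first Ctrl ZT16 library and 1 without either cKOt ZT16 library. Each fit without 1 library leaves 1 mouse in 1 group. Why the count moved was not tested. The deviations of same-numbered libraries correlated at 0.34 between the genotypes at either time, at -0.21 between the times in Ctrl and at 0.17 in cKOt, and at -0.22 and -0.065 across both, and no label ties a number to a litter or day, so the numbers were not taken to pair the mice. With the numbers of Ctrl ZT16 crossed in the block, time in Ctrl gave 2 calls in place of 1 within classes. No Esrrg call of the replicate block was made with the crossed block. The crossed block called Pax2 in TAL clusters 3 and 14, Tfap2b in CNT and DCT2, and Tfcp2l1 in PCT.

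The level of Esrrg in MD was 6631 CPM at resolution 2.2 (chosen after seeing the data), where DCT1 was its highest class. The other 7 leading levels moved by less than 1 SD in the settings run. Hnf4a in PST for cKOt against Ctrl at ZT16 ranged from -0.26 to 0.076 when 1 library was left out, with 0.076 without the first Ctrl ZT16 library and 0.069 without the second cKOt ZT16 library. MD and thinDL are limited by their few nuclei (12 to 33 and 35 to 69 per library).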
